A study of Mus musculus with 7 samples.

Results

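The nuclear-encoded subunits of respiratory complexes II to V were read in arcuate nucleus tissue of Dusp8-deficient and control mice. Members were chosen by gene symbol in the platform annotation: Sdha, Sdhb, Sdhc, Sdhd and Cyc1, and every symbol that starts with Uqcr, Cox4, Cox5, Cox6, Cox7, Cox8 or Atp5. The rule found 55 of 25697 probes, for 46 genes. Complex II had 3 genes, complex III 9, complex IV 18 and complex V 16, and Sdha had no probe under this rule. The 4 Dusp8-deficient arrays (ko_108, ko_125, ko_148 and ko_168) and the 3 control arrays (wt_136, wt_145 and wt_177) each held total RNA of 1 male C57BL/6J mouse aged 40 weeks, per the labels. Both groups had eaten a high-fat diet, with 45% of its energy as fat, for 30 weeks after a switch from chow at 8 to 10 weeks of age, and knockout and wild-type mice were littermates. Dusp8 encodes a dual-specificity phosphatase that acts on MAP kinases; the labels do not say how the gene was disrupted or in which cells.

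Complex II (succinate dehydrogenase) feeds electrons from the citric acid cycle into the ubiquinone pool. Complex III passes them to cytochrome c, complex IV (cytochrome c oxidase) hands them to oxygen, and complex V (ATP synthase) uses the proton gradient to make ATP. Neurons draw most of their ATP from this chain. Several subunits of complex IV come from small gene families. A form found in most tissues stands beside forms of heart and skeletal muscle, lung or testis. The c subunit of complex V also has several genes, which encode the same mature protein.

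No subunit of complexes II to V passed the test between Dusp8-deficient and control tissue. The test was limma's moderated test on normalised log2 signal, with p adjusted by Benjamini-Hochberg over all 14067 probes detected on at least 3 of the 7 arrays, and all differences below are Dusp8-deficient minus control on the log2 scale. Of the 55 member probes 46 were tested, and 0 had an adjusted p below 0.05, where 0.00711% of all tested probes did. That share is 1 probe, which reads Dusp8 itself. Its signal was 104, 77, 94 and 98 on the Dusp8-deficient arrays and 624, 558 and 540 on the control arrays, a log2 difference of -2.52 (SE 0.23) with an adjusted p of 0.00963 by limma. At an unadjusted p below 0.05, 1 member probe (Cox6b2, lower) stood among 4.81% of all tested probes, of which 2.31% were higher and 2.5% lower. Every Dusp8-deficient array lay above every control array at 2 member probes, for Cox6c and for a second Uqcr10 probe, and below at 1, for Cox6b2. Over all tested probes these shares were 2.78% and 2.79%, or 5.57% together, so the members' 6.52% is near the background.

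Most of the chain was detected in this tissue. Of the 46 genes 38 had a probe above background on all 7 arrays, 6 on some and 2 on none. The 40 genes with a tested probe, each read through its brightest one, were 3 of complex II, 8 of complex III, 14 of complex IV and 15 of complex V. The 6 without a tested probe were Uqcrq, Cox7a1, Cox7b2, Cox8b, Cox8c and Atp5o. Cox7a1 and Cox8b, forms known from heart and skeletal muscle, were detected on 1 and 0 arrays. Cox7b2 and Cox8c, forms known from testis, were detected on 1 and 0 arrays. In bulk tissue, fewer cells of a type and less RNA per cell cannot be told apart.

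**Figure D1:**
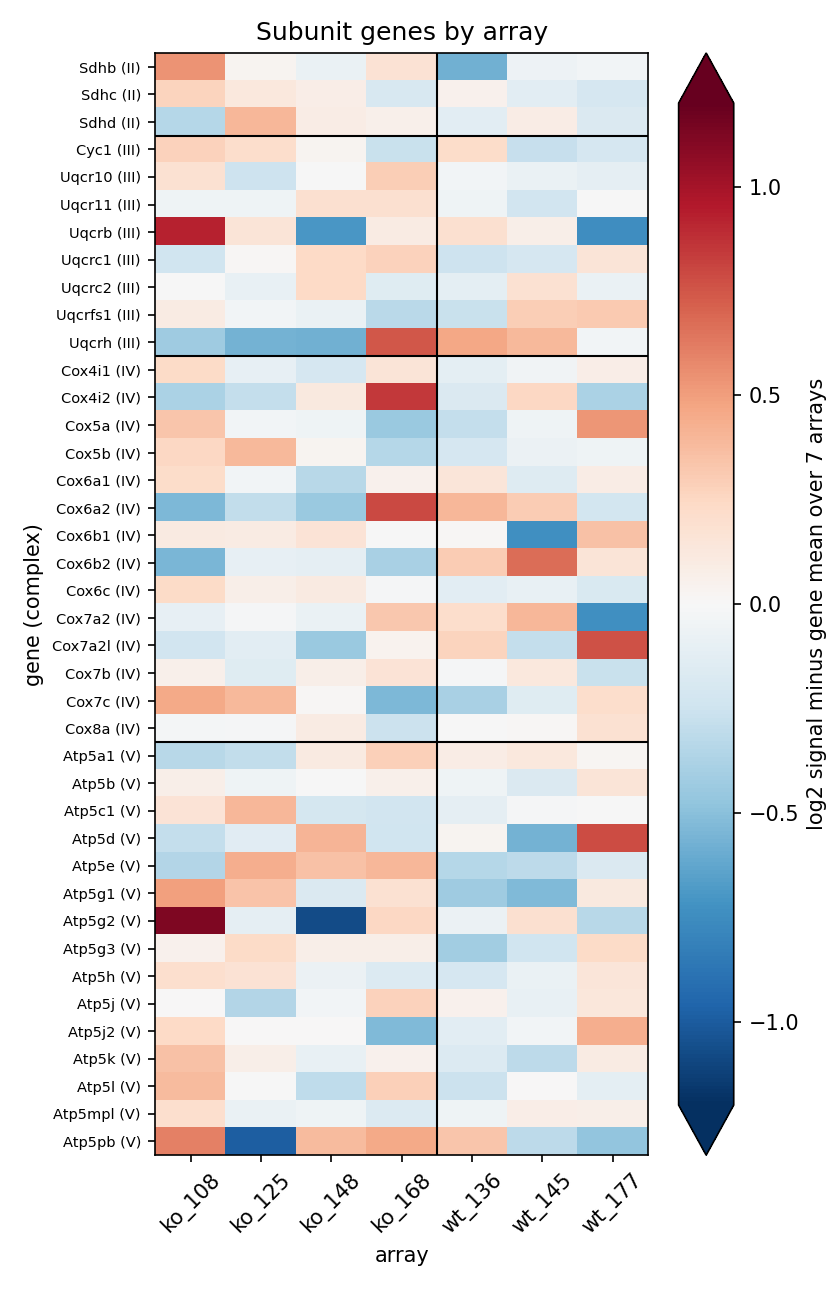
Normalised log2 signal of each tested gene of complexes II to V (rows) on each of the 7 arrays (columns), centred on the gene's mean. Of the 40 genes 15 were highest on ko_108, against 17.6% of all tested genes. None was highest on wt_136, against 9.43% of all tested genes and 1 of 34 genes of complex I.

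In complex II all 3 tested genes had differences above 0, from 0.12 to 0.39. Sdhb, the iron-sulfur subunit, had log2 signals of 6.91, 6.39, 6.28 and 6.54 in Dusp8-deficient tissue and 5.79, 6.30 and 6.33 in control tissue. The groups overlapped at one end, with ko_148 below wt_177 and wt_145, and wt_136 was the lowest of all. The difference was 0.39 (SE 0.23, 95% interval -0.13 to 0.91), and 0.21 without wt_136. Both other Sdhb probes were detected on ko_108 and ko_125 and on no control array, and were too rarely detected to be tested. Against the background floor of the controls their Dusp8-deficient means were at least 1.07-fold and 1.22-fold higher. These means rest on ko_108 and ko_125. The groups overlapped at both probes, with p of 0.286 and 0.2 by the exact permutation test. Sdhc, a membrane anchor that helps hold the heme, had 10.15, 10.01, 9.96 and 9.69 against 9.94, 9.75 and 9.69, a difference of 0.16 (SE 0.20) that was 0.09 without ko_108. A second Sdhc probe went the other way at -0.32 (SE 0.29), where wt_136 was the brightest array, so the direction of Sdhc depends on the probe. Sdhd, the other membrane anchor, had 8.07, 8.82, 8.50 and 8.48 against 8.29, 8.50 and 8.24, with ko_108 the lowest and ko_125 the highest, and a difference of 0.12 (SE 0.22). It was 0.00853 without ko_125 and 0.26 without ko_108.

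In complex III 6 of 8 tested genes had differences above 0 and 2 below. Uqcrh, the hinge protein that helps cytochrome c dock, had 5.71, 5.57, 5.56 and 6.88 in Dusp8-deficient tissue against 6.60, 6.52 and 6.10. All Dusp8-deficient arrays but ko_168 lay below the controls, and ko_168 lay above them. The difference was -0.48 (SE 0.33), and -0.80 without ko_168. Uqcrfs1, the Rieske iron-sulfur protein, differed by -0.20 (SE 0.22), and by -0.39 without wt_136 and -0.10 without wt_177. The small subunit Uqcr11 differed by 0.16 (SE 0.19), and by 0.09 without wt_145. The remaining genes, Uqcrc1 and Uqcrc2 (the core proteins), Cyc1 (the heme-bearing cytochrome), Uqcrb and Uqcr10, ranged from 0.01 to 0.28. The second Uqcr10 probe, whose groups did not overlap, differed by 0.25 (SE 0.19).

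In complex IV 8 of 14 tested genes had differences above 0 and 6 below. Cox6b2, known as the testis form of subunit VIb, had 4.45, 4.90, 4.89 and 4.61 in Dusp8-deficient tissue and 5.30, 5.67 and 5.15 in control tissue. These groups did not overlap after normalisation. The difference was -0.66 (SE 0.22, 95% interval -1.15 to -0.18), with an unadjusted p of 0.0125 and an adjusted p of 0.996 by limma. With a background offset of 50 the difference was -0.33, and without wt_145 it was -0.52 with an unadjusted p of 0.0617 by limma. The exact permutation test on its 7 values gave the smallest two-sided p that 4 arrays against 3 allow, 0.0286. The signal lies close to background: before normalisation it was 4, 19, 15 and 7 against 25, 34 and 17, where ko_125 was above wt_177. Cox6b2 was above background on 6 arrays, and its other probe on none.

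Cox6c, a small subunit close to the catalytic core, was bright and varied little. Its signals were 1775, 1829, 2014 and 1988 in Dusp8-deficient tissue and 1733, 1666 and 1433 in control tissue. After normalisation they became 11.05, 10.89, 10.93 and 10.80 against 10.70, 10.73 and 10.64. Every Dusp8-deficient array was above every control array, by a mean of 0.23 (SE 0.18), with an unadjusted p of 0.228 by limma and 0.0571 by the exact permutation test. Cox7a2l, known from work on supercomplexes of complexes III and IV, had 6.52, 6.62, 6.30 and 6.79 against 7.01, 6.46 and 7.51. Its groups overlapped through wt_145, and the difference was -0.44 (SE 0.27). It was -0.70 without wt_145 and -0.18 without wt_177.

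The forms that replace each other in complex IV had no common direction. Cox4i1, the form of most tissues, differed by 0.05 (SE 0.20). Cox4i2, known as the lung form, was above background on 2 arrays of each group and differed by 0.18 (SE 0.31). Cox6a1, the liver-type form, differed by -0.05 (SE 0.21). Cox6a2, the heart and muscle form, had 5.67, 5.92, 5.76 and 7.01 against 6.61, 6.52 and 5.99. As at Uqcrh, ko_168 was the highest array, and the difference was -0.28 (SE 0.33). It was -0.59 without ko_168 and -0.14 without ko_108. Cox7a2 and Cox8a, the forms of most tissues, differed by 0.08 (SE 0.29) and -0.11 (SE 0.19). Without wt_177 the first was -0.27, and without ko_168 the second was -0.05. The rest of complex IV, Cox5a, Cox5b, Cox6b1, Cox7b and Cox7c, ranged from -0.11 (Cox5a) to 0.22 (Cox6b1).

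**Figure D2:**
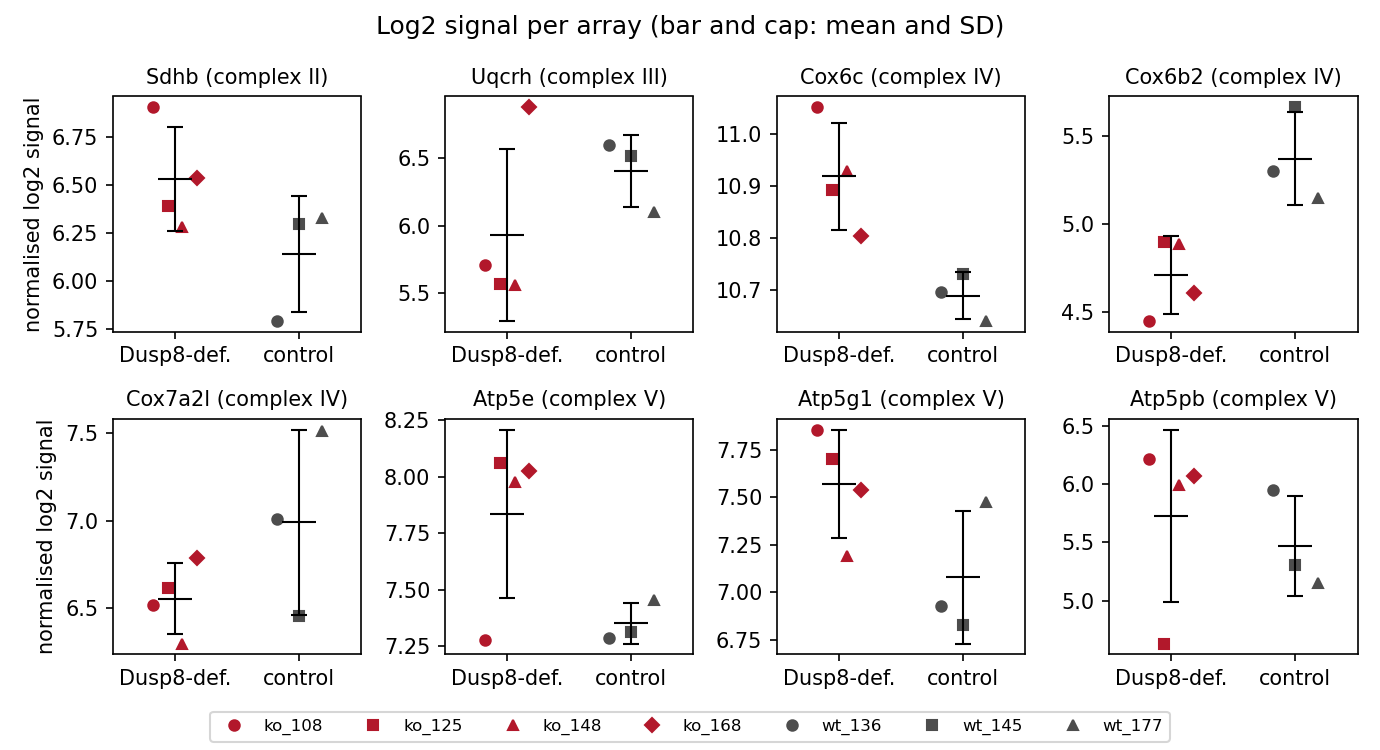
Normalised log2 signal (vertical axis, scaled per panel) of 8 subunit genes in the 4 Dusp8-deficient and 3 control arrays; each point is an array, and the bar with caps is the group mean and SD. The groups separate at Cox6b2 and Cox6c and overlap at the others, and at Atp5e ko_108 lies level with the controls.

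In complex V 10 of 15 tested genes had differences above 0 and 5 below. Atp5e, the epsilon subunit of the central stalk, had signals of 118, 269, 264 and 257 in Dusp8-deficient tissue and 146, 141 and 141 in control tissue. On the normalised log2 scale these were 7.28, 8.06, 7.98 and 8.03 against 7.29, 7.31 and 7.45. The Dusp8-deficient arrays other than ko_108 lay above the controls, and ko_108 lay just below them. The difference was 0.48 (SE 0.24, 95% interval -0.04 to 1.01), and 0.67 without ko_108. Atp5pb, the b subunit of the outer stalk, had 6.22, 4.63, 6.00 and 6.08 against 5.95, 5.30 and 5.15. Here ko_125 was the lowest array, and the difference of 0.26 (SE 0.39) became 0.63 without it and 0.10 without ko_108 or wt_177.

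Atp5g1, Atp5g2 and Atp5g3 encode the same mature c subunit of the membrane rotor, from separate genes with different import peptides. Atp5g1 had 7.86, 7.70, 7.19 and 7.54 in Dusp8-deficient tissue against 6.93, 6.83 and 7.48, a difference of 0.49 (SE 0.24, 95% interval -0.05 to 1.04). Only wt_177 among the controls reached the Dusp8-deficient range. Atp5g2 ran from 6.13 on ko_148 to 8.33 on ko_108, the wider spread of the 3, and its difference of 0.12 (SE 0.43) became -0.24 without ko_108. Atp5g3 had 8.83, 9.01, 8.85 and 8.85 against 8.36 and 8.53 on wt_136 and wt_145, with wt_177 level with ko_125. Its difference was 0.25 (SE 0.21), and it was 0.12 without wt_136 and 0.44 without wt_177. The other 10 tested genes of complex V were 5 above 0 and 5 below, from -0.16 (Atp5j2) to 0.23 (Atp5k). They include the catalytic head (Atp5a1, Atp5b), the central stalk (Atp5c1, Atp5d) and small membrane subunits (Atp5k, Atp5l). The other probes of Atp5j, the coupling factor, gave -0.07 and 0.29.

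The start regions of Atp5e and of the c-subunit genes are shown because these are the complex V genes with the largest differences and their same-protein partners. The windows are RefSeq promoters on GRCm38.p6, 250 bases before to 50 after the start site, all on the minus strand: chr2:174464052-174464351 (Atp5e), chr11:96075582-96075881 (Atp5g1), chr15:102670998-102671297 (Atp5g2) and chr2:73911277-73911576 (Atp5g3). Capitals mark the motifs searched on both strands, the NRF1 motif GCGCANGCG and the ETS motif CCGGAAG.
Atp5e: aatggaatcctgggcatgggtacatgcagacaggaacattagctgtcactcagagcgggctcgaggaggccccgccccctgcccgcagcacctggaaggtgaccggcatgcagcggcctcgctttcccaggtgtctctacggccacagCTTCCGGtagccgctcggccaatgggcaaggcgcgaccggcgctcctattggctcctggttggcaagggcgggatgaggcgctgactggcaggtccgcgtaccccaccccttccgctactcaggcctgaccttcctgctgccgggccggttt
Atp5g1: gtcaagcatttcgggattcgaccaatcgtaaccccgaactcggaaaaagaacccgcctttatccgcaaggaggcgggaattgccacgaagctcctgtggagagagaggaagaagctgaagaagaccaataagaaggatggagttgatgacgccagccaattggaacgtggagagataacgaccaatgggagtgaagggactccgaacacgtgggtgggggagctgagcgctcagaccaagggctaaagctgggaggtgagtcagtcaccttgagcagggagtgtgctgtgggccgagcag
Atp5g2: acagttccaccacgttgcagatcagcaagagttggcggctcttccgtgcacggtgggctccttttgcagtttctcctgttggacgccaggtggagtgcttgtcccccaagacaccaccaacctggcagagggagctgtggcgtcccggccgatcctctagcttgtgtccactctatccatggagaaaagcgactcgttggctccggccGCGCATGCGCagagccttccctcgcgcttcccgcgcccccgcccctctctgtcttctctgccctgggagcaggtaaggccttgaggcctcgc
Atp5g3: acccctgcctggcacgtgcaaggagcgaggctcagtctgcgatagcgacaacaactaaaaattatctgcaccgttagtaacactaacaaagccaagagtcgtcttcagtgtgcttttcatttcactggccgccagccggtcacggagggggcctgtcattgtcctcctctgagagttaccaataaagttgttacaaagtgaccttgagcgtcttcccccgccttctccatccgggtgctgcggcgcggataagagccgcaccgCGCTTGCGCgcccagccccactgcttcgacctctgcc
The ETS motif stands in the window of Atp5e and the NRF1 motif in those of Atp5g2 and Atp5g3, while the window of Atp5g1 holds neither. NRF1 and ETS-family factors are known regulators of nuclear respiratory genes. Windows were found for 34 of the 46 genes. The NRF1 motif was in 11 of them (32.4%) against 7.03% of 27025 genes with a window, namely 1 of 2 in complex II, 2 of 5 in complex III, 1 of 13 in complex IV and 7 of 14 in complex V. With one more C at its end, the form searched first, it was in 9 (26.5%) against 5.19%. The ETS motif was in 12 (35.3%) against 9.93%, and the YY1 motif AAGATGGC in 3 (8.82%) against 3.19%. The genes compared against were all genes with a window, not matched for expression or for the G and C content of the window. A motif match describes the letters of the window, not binding.

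**Figure D3:**
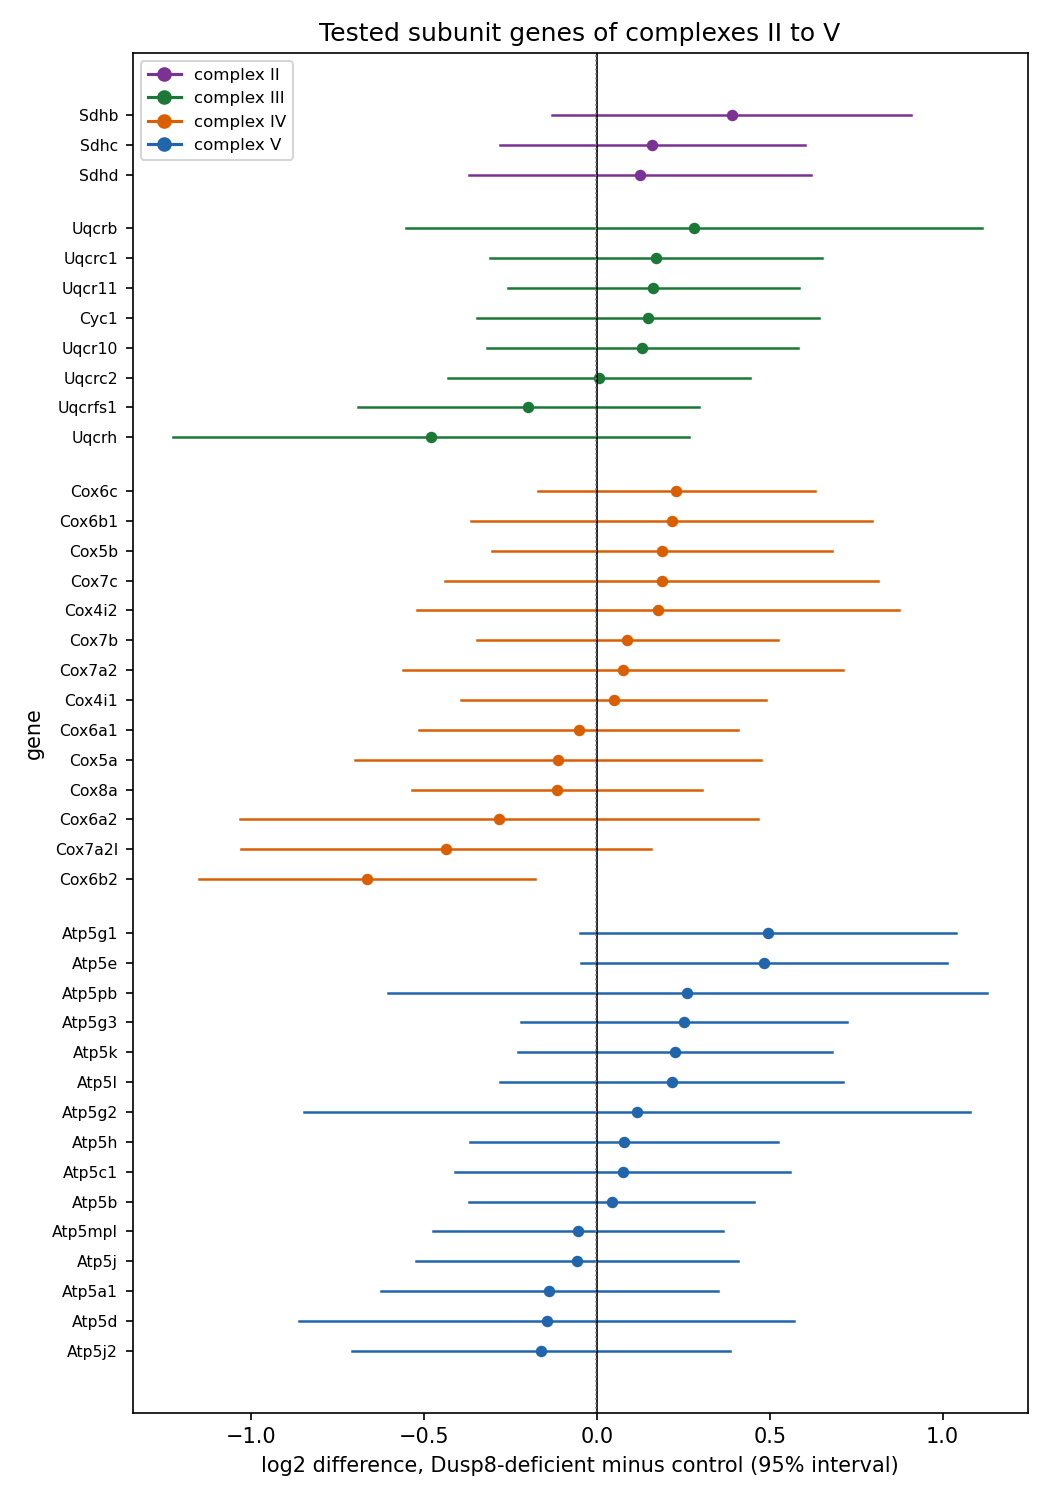
Log2 difference, Dusp8-deficient minus control, of each tested gene of complexes II to V, with its 95% interval from the limma fit over 7 arrays. The interval of Cox6b2 is the one that does not cover 0, before adjustment.

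Side by side, the medians of the tested genes were 0.16 in complex II and 0.14 in complex III. They were 0.06 in complex IV and 0.08 in complex V. The means, in the same order, were 0.23, 0.03, -0.03 and 0.11. The order of the complexes and the direction of complex IV thus depended on the summary used. Over all 40 genes the median was 0.10, with 27 above 0 and 13 below, beside a median of -0.00 over 9720 tested genes. The 34 tested genes of complex I had a median of -0.01, and the 68 of the mitochondrial ribosome also -0.01. By means, the 40 genes (0.054) and complex I (0.045) lay close together, and the mitochondrial ribosome was at -0.010. The gap to complex I thus appears in the median and not in the mean. The SD between replicate arrays of the complex's mean centred signal was 0.09 in complex II, 0.09 in complex III, 0.04 in complex IV and 0.11 in complex V, and the differences between complexes were not tested. Of the 40 intervals 31 lay within 2-fold in both directions and 12 within 1.5-fold, so differences of the size of the medians were not detectable gene by gene with 7 arrays.

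The medians depended on single arrays. Leaving out each array in turn gave medians over the 40 genes from 0.05 to 0.12, the lowest without ko_108 (0.05) and without ko_168 (0.05). This was chosen after seeing the data. Without ko_108 25 genes were above 0, and the medians by complex were 0.26 (II), 0.04 (III), 0.02 (IV) and 0.03 (V). Without wt_177 that of complex III was also 0.04. That of complex IV was 0.01 without wt_177, -0.01 without ko_168 and -0.02 without wt_145. The mean centred log2 signal of the 40 genes was 0.11, -0.02, -0.06 and 0.06 on the Dusp8-deficient arrays and -0.05, -0.05 and 0.01 on the controls, so the groups overlapped. In complex II, with 3 genes, it was 0.16, 0.19, 0.03 and 0.01 against -0.21, -0.04 and -0.14, and the groups did not overlap. This separation holds with the brightest Sdhc probe. The second Sdhc probe, at -0.32 (SE 0.29), went the other way and is not in this mean. How often means of 3 genes separate by chance was not tested. Of the 40 genes 15 (37.5%) were highest on ko_108, against 17.6% of all tested genes and 5 of 34 genes of complex I. The mean centred log2 signal of complex I on ko_108 was 0.08, beside 0.11 for the 40 genes. Of its 34 genes 12 were highest on ko_168. A raised mean on ko_108 was therefore not particular to complexes II to V.

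**Figure D4:**
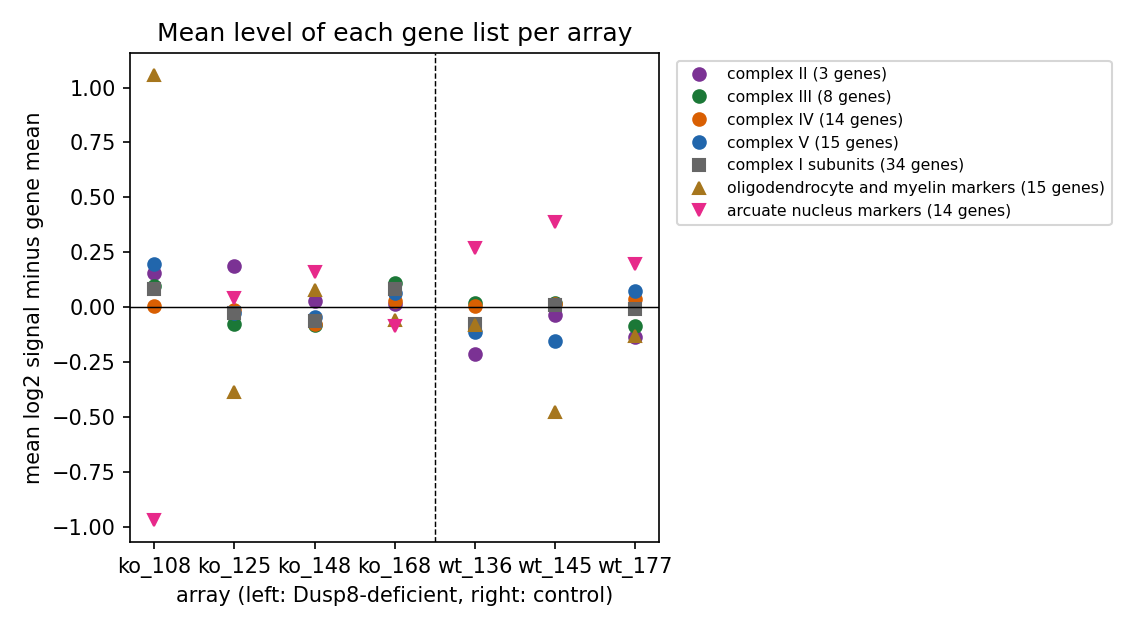
Mean log2 signal minus the gene mean (vertical axis) of the tested genes of each complex, of complex I and of 2 marker lists on each of the 7 arrays. The array ko_108 has the highest complex V value, 0.20, and the most extreme values of both marker lists, 1.06 and -0.97.

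The array ko_108 also stood apart in cell type markers and brightness. Its mean signal was 58.0, where the other Dusp8-deficient arrays had 73.4 to 74.9 and the controls 60.6 to 72.2. All 15 tested oligodendrocyte markers were highest on ko_108, with a mean centred log2 signal of 1.06, where the other arrays lay between -0.48 and 0.08. Of 14 tested arcuate nucleus markers 12 had differences below 0, beside 4901 of all 9720 tested genes. The median of the 14 markers was -0.55, and -0.26 without ko_108. Their mean centred log2 signal was -0.97, 0.04, 0.16 and -0.09 on the Dusp8-deficient arrays and 0.27, 0.39 and 0.20 on the controls. By this mean the groups did not overlap, with or without ko_108. Gene by gene, the groups did not overlap at 1 of the 14 markers. How often the mean of such a list separates by chance was not tested. No marker passed the test. The 2 of smallest p were the nuclear receptor genes Nr0b1 at -0.82 (SE 0.23) and Esr1 at -0.76 (SE 0.28). Slc6a3 was detected on 0 arrays, and Agrp and Prlr had no probe here. The part of these values in the subunit medians was not tested.

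Genes that build or serve the chain gave no call either, at adjusted p of 0.996 by limma. Of 32 tested assembly factors 13 had differences above 0 and 19 below, with a median of -0.04, and of 0.03 without ko_108. Surf1, a complex IV assembly factor, had the lowest unadjusted p at -0.65 (SE 0.27), followed by Sdhaf1, a complex II assembly factor, at 0.48 (SE 0.21). Of 14 tested electron carriers and related genes 8 were above 0, with a median of 0.05. Etfa, which delivers electrons from fatty acid oxidation, differed by 0.87 (SE 0.28), and Cycs, cytochrome c itself, by 0.49 (SE 0.29). Of 10 tested regulators of respiratory genes 8 were above 0, with a median of 0.06. Among the tested subunits, Cox6b2, Cox6a2, Cox6b1 and Uqcrc2 lie on chromosome 7 of GRCm38.p6, as Dusp8 does. Their differences were -0.66, -0.28, 0.22 and 0.01. They are spread along the chromosome, from bases 4751792, 128205435, 30616971 and 120635189 in that order. Distance from Dusp8 was not examined.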

How the data were processed

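RNA from 7 mice was measured on an Illumina bead array after amplification and biotin labelling. The authors deposited intensities without normalisation between arrays, with a detection p-value per probe, per the file headers; the values are whole numbers that go below 0. How they were made is not stated. A second deposited table of intensities, quantile-normalised judging by the values, was used only as an alternative. Column names gave the group but no replicate number.

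Intensities were processed with neqc of limma 3.58.1 (R 4.3.3): background from detection p-values, offset 16, quantile normalisation, log2. Probes with detection p below 0.05 on at least 3 of 7 arrays were tested with lmFit and eBayes, two-sided, with Benjamini-Hochberg adjustment. The steps were tested on simulated data first. Named genes were Dusp8, complex II, the 3 smallest p per other complex, isoform sets, outliers, and the 2 smallest p of other lists. Members and lists were chosen with earlier results of these data known. The 9-letter NRF1 motif was added after the counts of the longer form were seen. Alternatives covered offset, normalisation, filter, variance, weights, the processed table, a replicate block and leaving out each array.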

Additional observations from a re-analysis of the deposited data

Results flagged for a closer look

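Values singled out lie apart within the 4 Dusp8-deficient arrays by Dixon's test, which chance passes in about 1 of 20 groups. Of 60 values examined 7 were singled out, where chance gives 3. Among the 40 subunit genes there were 4. Uqcrh was 6.88 on ko_168 against 5.56 to 5.71 on the others. Atp5e was 7.28 on ko_108 against 7.98 to 8.06. Atp5g3 was 9.01 on ko_125 against 8.83 to 8.85. Atp5pb was 4.63 on ko_125 against 6.00 to 6.22. The mean centred signal of the assembly factors was -0.19 on ko_108 against 0.03 to 0.04, and that of the choroid plexus and pituitary markers -0.66 against 0.37 to 0.52. The mean signal per array was 58.0 on ko_108 against 73.4 to 74.9. No cause was tested.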

How the results depend on the processing

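No member probe passed an adjusted p of 0.05 by limma in any setting, leave-one-out included (0 to 0), and the smallest adjusted p of a named subunit was 0.69. Of 338 values of 20 named subunits over the settings, 323 kept their direction and 15 reversed. The filter and variance settings leave a log2 difference unchanged, and the fits with and without the replicate block share theirs. Part of the 323 therefore could not have reversed. The count at unadjusted p below 0.05, 1 as reported, was 3 with an offset of 50, 2 with median scaling, 2 without a filter, 0 with detection on all 7 arrays (where Cox6b2 is not tested), 2 with trend and robust variance, 3 with array weights, and 1 to 3 with an array left out. Atp5g1, Atp5e, Cox6c, Uqcrh, Cox6a2, Atp5pb and Cox7a2l entered it in some settings. The call of Dusp8 was lost (0 probes) without a filter, at adjusted p of 0.141 by limma, and when any array but ko_108 or ko_125 was left out (0 to 1 probes). Its log2 difference stayed between -2.64 and -2.37 with an array left out and was -2.52 without a filter.

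With replicates 1 to 3 of the processed values there were 0 calls with the replicate block and 0 without it. Member probes at unadjusted p below 0.05 by limma numbered 2 and 3. In both fits the complex II median was 0.25 and the complex IV median -0.00798. These fits leave out the last Dusp8-deficient replicate. Without ko_168 the same medians were 0.25 and -0.0087, so the replicate fits may repeat that setting rather than add to it. Same-numbered samples had correlations of deviations of -0.07, 0.07 and -0.00. The numbers thus gave no sign of pairing, though so few samples cannot exclude it. In both fits, Cox4i2 was -0.0825 and Cox7a2 -0.0215. The complex IV median was 0.12 with median scaling and -0.00509 with array weights, where Cox4i1 was -0.00178, Cox7a2 -0.0793 and Atp5g2 -0.27. Leaving out each array gave medians of 0.11 to 0.26 (complex II), 0.0395 to 0.15 (III), -0.0235 to 0.0964 (IV) and 0.03 to 0.15 (V), and gave Cox4i1 -0.0222 to 0.12, Cox4i2 -0.0791 to 0.35, Cox6a1 -0.14 to 0.0513, Cox7a2 -0.27 to 0.30 and Atp5g2 -0.24 to 0.49. The number of arrays limits precision.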
